A study of Mus musculus with 6 samples.

Results

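The major histocompatibility complex (MHC) of the mouse, the H2 complex, lies on chromosome 17, and its open chromatin was followed here as the merged ATAC-seq regions whose midpoint falls in chr17:33900000-37400000 of the mouse genome build mm9. ATAC-seq marks open chromatin by the cuts of a transposase, and a peak is a stretch where the cuts pile up. The peaks of 6 deposited lists were joined into 1 region wherever they overlapped by at least 1 bp, which gave 149724 regions in the genome. Of these, 469 lay in the MHC window and 5898 on the rest of chromosome 17, which served as the background.

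The study compared cultured lines of pro-B cells, an early stage of B lymphocyte development, from mouse bone marrow. CBE_1 and CBE_2 are IGCR1-/- lines: in them IGCR1, a control element of the immunoglobulin heavy chain (IgH) locus, is mutated, while WT has unmutated IgH alleles. The IgH locus and the MHC lie on different chromosomes. All lines are deficient for RAG2, a part of the recombinase that cuts antigen receptor genes, and all come from strain 129SV. Each line has 2 libraries, made from 200000 cells with 11 cycles of PCR and sequenced as single reads. There is 1 WT line, so genotype and line cannot be told apart in any comparison below, and the labels do not say that duplicates came from separate cultures, so the spread between them may be technical.

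The MHC holds the genes by which cells show peptides to T lymphocytes. Class I molecules, such as H2-K and H2-D, sit on nearly all cells and present peptides from inside the cell, while class II molecules, such as H2-A and H2-E, are made mainly by B cells, dendritic cells and macrophages and present peptides taken up from outside. Between the class II and class I genes lies the class III stretch, with complement genes (C2, Cfb, C4b), heat shock genes (Hspa1a, Hspa1b) and the cytokine genes Tnf, Lta and Ltb.

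The order of these genes was read from a RefSeq gene table of build GRCm38.p6, whose coordinates differ from mm9, so that it gave names and order only. All 20 class I genes looked up, all 16 class II and antigen processing genes and all 20 class III genes were found on chromosome 17, and 167 protein-coding genes lay from H2-K1 to H2-M2. The order ran from Tapbp, which loads peptides onto class I molecules, H2-K2 and H2-K1 through H2-Oa, Brd2, H2-DMa, the peptide transporter genes Tap1 and Tap2, H2-Ab1, H2-Aa and H2-Eb1 to Notch4, where the class III list began. It went on through C4b, Cfb, C2, Hspa1b, Bag6, Ltb, Tnf and Lta to Ddx39b, then to H2-D1, the H2-Q genes, the H2-T genes and the H2-M genes. The window was split into 14 bins of 250 kb, numbered from the centromeric border. Bins 1 to 3 are called here K end and class II, bins 4 to 6 class III, bins 7 and 8 D and Q, and bins 9 to 14 T and M. These names follow general knowledge of the complex and give rough positions, since no mm9 annotation was used here, and no region below was assigned to a gene, an exon or an intron.

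Every list held peaks across the complex. The lists contained 72318 and 80242 peaks in CBE_1, 94665 and 97522 in CBE_2, and 112241 and 106056 in WT, and the number of mapped reads behind them is unknown. Of these peaks, 330 and 350 lay in the window in CBE_1, 348 and 349 in CBE_2, and 398 and 374 in WT. CBE_1 thus had the shortest lists, but its window counts were close to those of CBE_2. The window's share of a list was 0.456% (95% Wilson interval 0.410 to 0.508) and 0.436% (0.393 to 0.484) in CBE_1. It was 0.368% (0.331 to 0.408) and 0.358% (0.322 to 0.397) in CBE_2, and 0.355% (0.321 to 0.391) and 0.353% (0.319 to 0.390) in WT. These intervals cover counting error only. Both CBE_1 libraries were the highest, CBE_2 and WT lay close together, and the intervals of CBE_1 replicate 2 and of CBE_2 overlap. The 4 mutated libraries averaged 0.404 ± 0.0491% (SD, n = 4) and the WT libraries 0.354 ± 0.00138% (SD, n = 2). The difference of 0.0509 percentage points gave p = 0.133 in an exact two-sided permutation test over the 15 choices of 2 libraries, whose smallest possible p is 0.0667. Without CBE_1 replicate 1 the difference was 0.0336 percentage points. With lists of equal length, 72318 peaks each, it was 0.0259 percentage points, so its size depended on list length.

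Measured within chromosome 17 the same order of CBE_1 over WT appeared, but CBE_2 fell under WT. The window held 10.3% and 10.07% of the chromosome's peaks in CBE_1, 8.10% and 7.93% in CBE_2, and 8.50% and 8.34% in WT. The peaks in the window covered 276 and 294 kb in CBE_1, 279 and 280 kb in CBE_2, and 325 and 306 kb in WT. On the rest of the chromosome, peaks covered 2090 and 2332 kb in CBE_1, 2804 and 2867 kb in CBE_2, and 3066 and 2900 kb in WT. Both WT libraries, which have the longest lists, thus had more open bases than any mutated library inside and outside the window. CBE_1 was close to CBE_2 in the window but well under it on the rest.

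The complex was dense in open regions. There were 134 regions per Mb in the window, against 66.3 per Mb on the rest of chromosome 17. A bin of the window held a median of 32.5 regions, against 12.5 in the 356 other bins of the chromosome, of which 31 had no region and the fullest had 88. Bin 6, the last of class III, was the fullest of the window with 61 regions, and 3 of the other bins held at least as many. Bin 2 followed with 60 and bin 10 with 56. By part, there were 183 regions per Mb in K end and class II, 167 in class III, 110.0 in D and Q, and 101 in T and M.

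The end of the T and M part was uneven. Bin 11 held 6 regions and bin 12 only 1, a region found in WT replicate 1 alone, while bin 13 held 32 and bin 14 held 17. The longest stretch without a peak in any list, chr17:36568741-36854669, spanned 286 kb, and 28 gaps of the chromosome were at least that long. The second, chr17:34850311-34972760 in class III, spanned 122 kb, which 101 gaps of the chromosome matched or passed. At the centromeric border the nearest region outside was chr17:33896397-33897923, present in all 6 libraries, and the first inside was chr17:33907042-33907544, present in 4. At the telomeric border the last region inside was chr17:37387446-37387929 and the first outside chr17:37400487-37401100, both present in all 6.

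**Figure D1:**
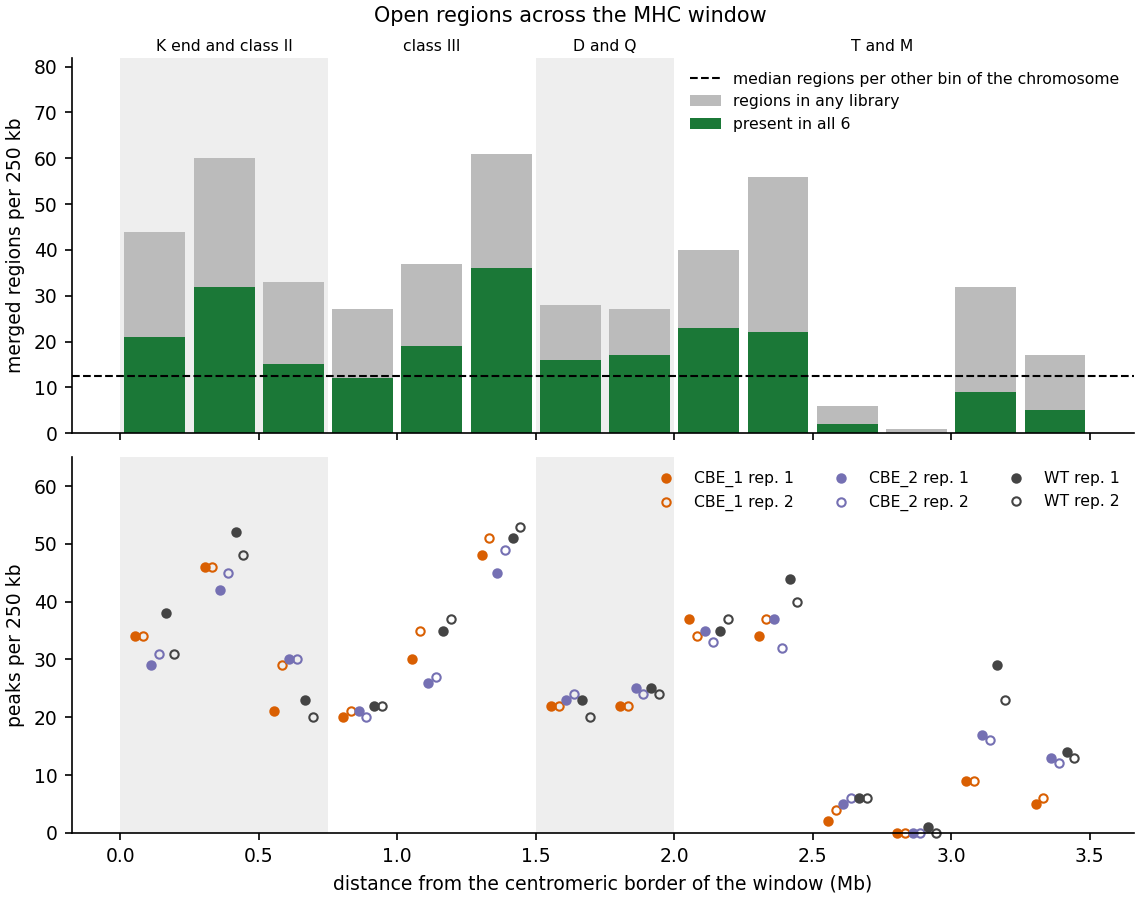
Merged regions (top, with those present in all 6 libraries in green) and peaks per library (bottom) in the 14 bins of 250 kb of the MHC window, by distance from its centromeric border in Mb, with shading that alternates between the 4 parts. The tallest bar is bin 6 with 61 regions, bins 11 and 12 are nearly empty, and in bin 13 both CBE_1 libraries have 9 peaks, against 29 and 23 in WT.

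Regions of the window were wider and ranked higher within their lists than those of the rest of the chromosome. The median merged region was 537 bp wide in the window, against 449 bp on the rest, and window widths went from 200 to 7612 bp. The median peak width in the window was 551 and 544.5 bp in CBE_1, 518 and 550 bp in CBE_2, and 507.5 and 517.5 bp in WT, and outside the window it stayed between 445 and 461 bp in every list. Peaks were ranked within each list by the authors' fold over background, as a percentile from 0 to 100 of that list. The median percentile of window peaks was 58.3 and 57.6 in CBE_1, 58.7 and 59.1 in CBE_2, and 57.8 and 61.0 in WT, against 49.7 to 51.8 for the rest of the chromosome in all lists. Both CBE_1 libraries lay under both CBE_2 libraries in this median. WT replicate 1 lay between the CBE_1 libraries and WT replicate 2 above all others.

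The top of the lists differed more. Peaks in the best 10% of their list made up 16.4% and 15.1% of window peaks in CBE_1, 9.48% and 10.03% in CBE_2, and 11.8% and 11.5% in WT. CBE_1 had the larger share of such peaks and CBE_2 the smaller in both libraries, while on the rest of the chromosome the share was between 10.0% and 10.8% in every list.

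A large part of the complex was open in every library. All 6 libraries held 229 (48.8%) of the 469 regions, against 33.5% outside the window on chromosome 17, and these are called shared regions below. They were the wide and strong ones, with a median merged width of 1077 bp, against 352 bp for window regions missing from at least 1 library. A merged width joins the peaks of all libraries, so part of this difference arises by construction. Another 84 regions (17.9%, against 27.8% on the rest) were found in a single library, namely 17 and 18 in CBE_1, 8 and 5 in CBE_2, and 26 and 10 in WT. Their folds stayed low, with a median of 2.78 and a maximum of 3.65. In 31 regions 1 library was missing, and in 17 of them it was CBE_1 replicate 1, the shortest list.

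Any pair of lists overlapped more in the window than on the rest of the chromosome. Overlap is given as the bases covered by peaks of both lists, as a share of the bases covered by either, so it also depends on peak width. Duplicates overlapped by 0.772 in CBE_1, 0.825 in CBE_2 and 0.806 in WT, against 0.727, 0.758 and 0.758 for the same lines on the rest. Between lines the mean over 4 pairs was 0.745 for CBE_1 with CBE_2, 0.712 for CBE_1 with WT and 0.721 for CBE_2 with WT, against 0.639, 0.580 and 0.629 on the rest. Within the window, duplicates of a line overlapped more than libraries of different lines did in each of these means.

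Few regions separated the lines by presence alone. WT-only regions, which both WT libraries held and no mutated library did, numbered 29 (6.18% of window regions), close to the 6.71% of the background. Regions in all 4 mutated libraries and in neither WT library numbered 4 (0.853%), against 1.59%. CBE_1-only regions, found in both libraries of that line and nowhere else, numbered 3 (0.640%, background 0.543%), and CBE_2-only regions 7 (1.49%, background 3.68%). CBE_1-absent regions, missing from that line and present in the other 4 libraries, numbered 13 (2.77%, background 4.95%), and CBE_2-absent regions 6 (1.28%, background 0.322%). The CBE_2-absent count was the only one of these well above its background, and it rests on 6 regions. With all other chromosomes in place of the rest of chromosome 17, that background was 0.664%.

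Several of these counts moved when 1 library was left out. They are given with their share of window regions and the same share on the rest of the chromosome, which moved as well. Without CBE_1 replicate 1 there were 10 mutated-only (2.20%, against 2.52%), 21 CBE_1-only (4.63%, against 2.72%) and 11 CBE_2-absent regions (2.42%, against 0.868%). Without CBE_1 replicate 2 there were 20 CBE_1-only (4.40%, against 3.37%), 13 CBE_2-only (2.86%, against 4.59%) and 30 CBE_1-absent regions (6.59%, against 9.12%). CBE_2-only regions numbered 12 without CBE_2 replicate 1 (2.60%, against 9.49%) and 15 without replicate 2 (3.23%, against 9.01%). Mutated-only regions numbered 7 without WT replicate 1 (1.55%, against 2.04%), and WT-only regions 56 without WT replicate 2 (12.1%, against 15.9%). In the better 50% of each list, 2 regions were CBE_2-absent (0.760%, against 0.392%) and 4 were CBE_1-only (1.52%, against 0.470%). With all lists shortened to the same length there were 12 WT-only regions (3.02%, against 4.94%). There were then 5 CBE_2-absent regions (1.26%, against 0.828%) and 6 CBE_1-only regions (1.51%, against 1.41%). The excess over the background in these small counts thus depended on the setting.

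Regions of all these patterns were weak members of their lists. A region's significance percentile is its rank by −log10 q-value in the list where it ranks lowest, and its median was 25.2 for WT-only, 9.99 for mutated-only, 4.34 for CBE_1-only, 19.0 for CBE_2-only, 22.4 for CBE_1-absent and 6.26 for CBE_2-absent regions. For shared regions it was 68.2. Of the 29 WT-only regions, 4 reached the 50th percentile in both WT lists. Their highest folds were those of chr17:37081007-37081550 in bin 13, with 10.06 and 8.35 in WT and no peak in either mutated line. Next came chr17:34516320-34516877 in K end and class II with folds of 7.68 and 6.59 in WT, chr17:35950004-35950732 in T and M with 6.17 and 6.37, and chr17:37108393-37108768 in bin 13 with 4.44 and 4.50. WT-only regions were spread as 7 in K end and class II, 5 in class III, 2 in D and Q and 15 in T and M, of which 10 lay in bins 13 and 14.

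The mutated-only regions were led by chr17:35836905-35838043 in D and Q, with folds of 5.28 and 3.96 in CBE_1, 6.99 and 6.98 in CBE_2 and no peak in WT. It covered 728 bases in each CBE_1 library and 1056 and 1048 in CBE_2. The other 3 were chr17:35693777-35694096 in D and Q (folds 3.77 and 2.92 in CBE_1, 2.82 and 3.44 in CBE_2), chr17:34708766-34709146 in class III (3.17 and 3.54 in CBE_1, 2.57 and 2.68 in CBE_2) and chr17:34401501-34402134 in K end and class II (3.32 and 2.40 in CBE_1, 4.66 and 3.54 in CBE_2). None of the 4 reached the 50th significance percentile in every mutated list.

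Among the patterns of a single line, the CBE_1-only region with the highest significance percentile in its lower list was chr17:35530887-35531237 in D and Q, with folds of 5.88 and 4.69, and the other 2, chr17:35185909-35186235 (3.02 and 2.50) and chr17:35377378-35377674 (3.32 and 2.29), lay in class III. By the same lowest significance percentile, the first CBE_2-only region was chr17:37348226-37348801 in bin 14, with 4.17 and 4.40, followed by chr17:35479348-35479704 in D and Q (3.07 and 2.90), and by chr17:34061977-34062212 (2.94 and 3.01) and chr17:34520065-34520393 (2.94 and 3.11) in K end and class II.

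Of the CBE_1-absent regions, chr17:34428538-34428874 had folds of 4.78 and 5.05 in CBE_2 and 4.65 and 4.39 in WT, and the first region inside the centromeric border, chr17:33907042-33907544, had 4.41 and 4.72 in CBE_2 and 5.73 and 5.93 in WT. The next were chr17:37165535-37166013 in bin 14, with 4.90 and 5.15 in CBE_2 and 4.44 and 3.96 in WT, and chr17:36331979-36332584 in bin 10, with 3.80 and 3.44 in CBE_2 and 3.68 and 4.61 in WT. In all 4 the CBE_2 and WT lists agreed in holding a moderate peak where both CBE_1 lists had none, and the CBE_1 lists are the shortest of the 6. Of the 13, 9 lay in T and M and 7 of these in bins 13 and 14.

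Of the CBE_2-absent regions, chr17:35104257-35105547 in class III was the strongest, with folds of 3.47 and 2.92 in CBE_1 and 5.95 and 4.83 in WT. It was also among the broadest, with 213 and 612 covered bases in CBE_1 and 846 and 1136 in WT. The others named by the same rule were chr17:35085629-35086002 in class III (3.02 and 2.61 in CBE_1, 3.25 and 3.74 in WT), chr17:35968993-35970421 in T and M (3.32 and 2.61 in CBE_1, 3.57 and 3.19 in WT) and chr17:34244303-34244788 in K end and class II (2.87 and 2.92 in CBE_1, 2.49 and 3.08 in WT). CBE_2 lists are longer than those of CBE_1, in which these regions were present.

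The shared regions ranked differently in the 3 lines. Folds are not on 1 scale across lists, so each shared region was given its percentile by fold among all 47767 regions of the genome that are present in all 6 libraries, separately in each library. The median percentile of the 229 window regions was 59.7 and 61.1 in CBE_1, 54.9 and 51.9 in CBE_2, and 54.2 and 53.3 in WT. On the rest of chromosome 17 it was 49.6 and 50.8 in CBE_1, 50.9 and 51.2 in CBE_2, and 47.8 and 48.0 in WT. Both CBE_1 libraries thus ranked the window regions above all other libraries, and the CBE_2 and WT libraries overlapped.

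Region by region, the median difference of line means was 8.60 points for CBE_1 minus WT (interquartile range 1.05 to 14.8), against 0.783 on the rest of the chromosome. For CBE_2 minus WT it was −1.13 points (−4.80 to 3.33), against 0.440, and it was −0.738 without CBE_2 replicate 1 and −0.548 without bins 13 and 14. The median absolute difference between duplicates was 3.57 points in CBE_1, 2.83 in CBE_2 and 2.64 in WT. The median absolute difference from WT was 9.93 points in CBE_1 and 4.16 in CBE_2, both larger than these spreads. On the rest of the chromosome it was 7.84 points in CBE_1 and 5.28 in CBE_2. Those values also exceeded the duplicate spreads there, 4.01 in CBE_1, 3.07 in CBE_2 and 2.75 in WT. Against that background the window difference was larger in CBE_1 and smaller in CBE_2. Over the 4 mutated libraries together the median difference from WT was 3.30 points, against 0.807 on the rest, and 1.83 points without CBE_1 replicate 1. Both lines were set against the same 2 WT libraries, so their differences are not independent of each other.

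A shared region was counted as above WT for a line when both of its libraries had a higher percentile than both WT libraries, and as below WT in the reverse case. CBE_1 lay above WT in 149 of 229 regions (65.1%), against 39.0% outside the window, and below WT in 27 (11.8%), against 32.9%. CBE_2 lay above WT in 53 (23.1%), against 34.8%, and below WT in 80 (34.9%), against 30.4%. Set directly against CBE_2, CBE_1 was higher in 162 regions (70.7%), against 33.0%, and lower in 16 (6.99%), against 34.0%. All 4 mutated libraries lay above both WT libraries in 47 regions (20.5%), which equals the 20.5% of the background, and below both in 23 (10.04%), against 17.4%. Regions below WT in all 4 numbered 37 without WT replicate 2 (15.7%, against 23.6% on the rest) and 36 without CBE_1 replicate 1 (14.6%, against 20.1%). Without CBE_1 replicate 1 the regions below WT in CBE_1 numbered 49 (19.9%, against 40.3%). The upward shift was that of CBE_1, and regions raised in both mutated lines were no more frequent than elsewhere on the chromosome.

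The CBE_1 share was above the background in weak and in strong regions, in dense bins and with lists of equal length. Among shared window regions whose mean WT percentile was under 50, 59.1% lay above WT in CBE_1, against 40.9% on the rest, and at 50 or more 70.6% did, against 36.9%. In bins of 20 or more regions the shares were 66.2% in the window and 39.6% on the rest. With the same number of peaks, 72318, taken from each list, they were 66.8% and 39.2%.

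**Figure D2:**
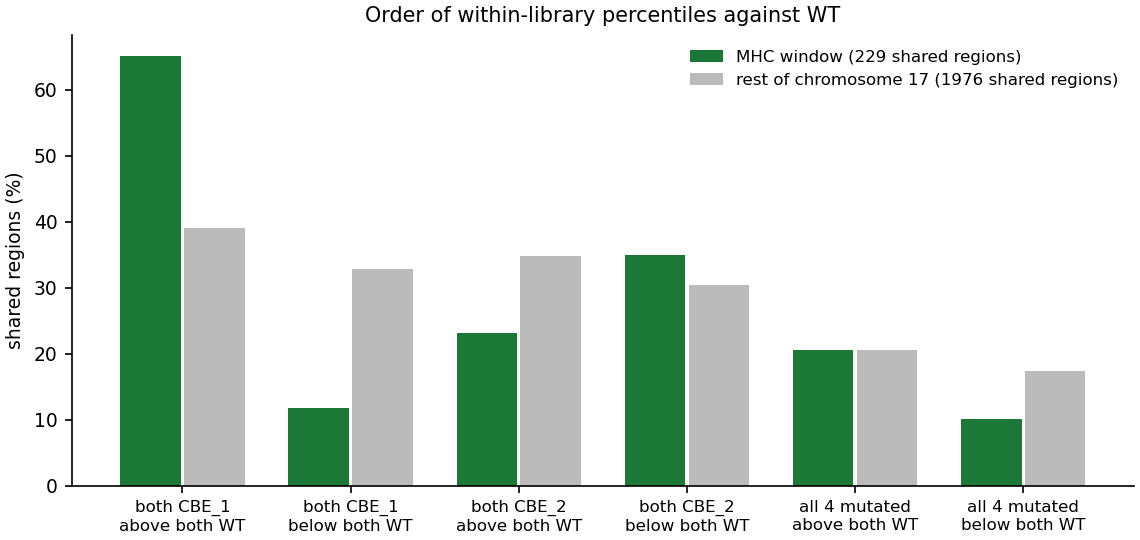
Share of shared regions (%) in which both libraries of CBE_1, both of CBE_2 or all 4 mutated libraries lie above or below both WT libraries in percentile, for the MHC window (green, 229 regions) and the rest of chromosome 17 (grey, 1976 regions). CBE_1 stands above WT in 65.1% of window regions, against 39.0% on the rest, while the share of all 4 mutated libraries above WT is 20.5% in both.

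Along the complex the shift of CBE_1 covered the K end, class II, class III, D and Q, and ended within T and M. CBE_1 was above WT in 49 of 68 shared regions of K end and class II, 50 of 67 of class III, 23 of 33 of D and Q, and 27 of 61 of T and M, and below WT in 3, 7, 1 and 16. The median difference was 10.96 points in K end and class II, 9.76 in class III, 11.4 in D and Q and 1.52 in T and M. CBE_2 was above WT in 15, 22, 14 and 2 regions of these parts and below in 21, 23, 8 and 28, with medians of −0.829, −0.253, 3.44 and −3.10 points. D and Q was the part where CBE_2 was more often above WT than below.

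Of the 12 bins with at least 5 shared regions, 10 had a median difference above 0 for CBE_1, against 57.2% of 152 such bins on the rest of the chromosome, and 9 exceeded 6.11 points, the upper quartile of those bins. For CBE_2 3 of the 12 were above 0, against 60.5%. The highest CBE_1 median was 12.8 points in bin 3, in K end and class II, followed by 12.5 in bin 7 and 12.4 in bin 1. The highest CBE_2 median was 6.22 points in bin 7. In bins 1 to 10, 147 of 213 shared regions (69.0%) lay above WT in CBE_1 and 17 below.

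Bins 13 and 14, at the telomeric end, went the other way. The CBE_1 medians were −6.51 points in bin 13 and −17.7 in bin 14, and those of CBE_2 −5.61 and −5.09. None of their 14 shared regions was above WT in either line, and 10 were below in CBE_1, 10 in CBE_2, and 8 in all 4 mutated libraries. The peak counts of these bins were 14 and 15 in CBE_1, 30 and 28 in CBE_2, and 43 and 36 in WT, so that the lines did not overlap in count either. On the rest of chromosome 17, 1 of 152 bins had a CBE_1 median as low as that of bin 14, and 3 had a CBE_2 median as low as that of bin 13. These bins were singled out after their values were seen.

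**Figure D3:**
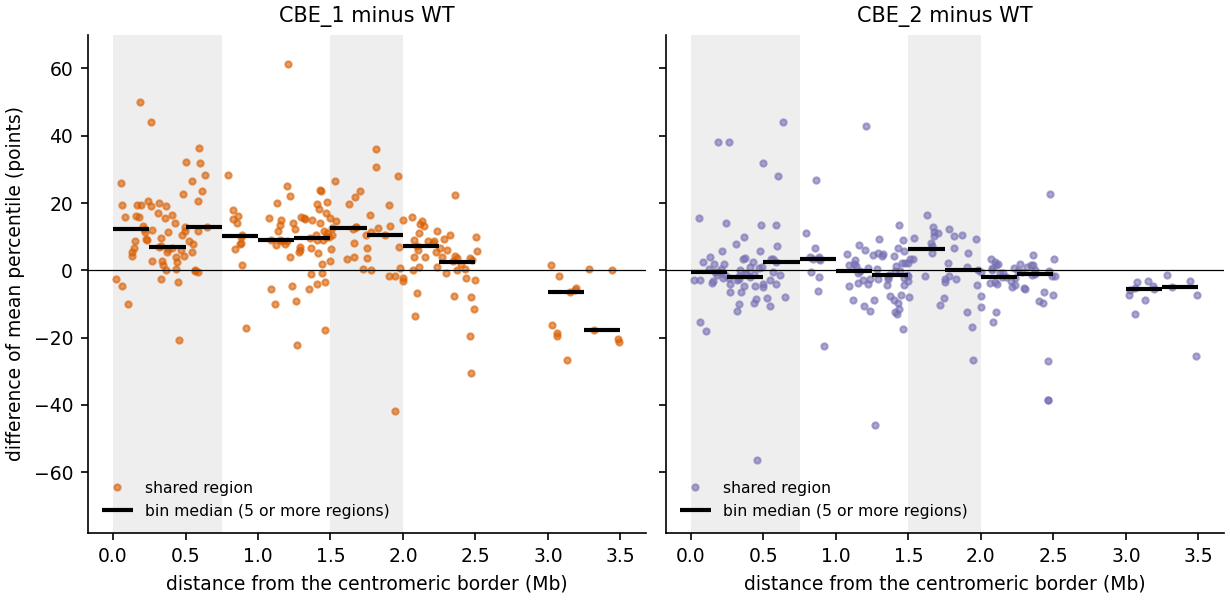
Difference in mean percentile (points) of each shared region of the MHC window, CBE_1 minus WT (left) and CBE_2 minus WT (right), by distance from the centromeric border in Mb, with bars for bin medians and shading that alternates between the parts. Most CBE_1 points lie above 0 up to about bin 10 and the medians of bins 13 and 14 lie at −6.51 and −17.7, while CBE_2 points centre near 0.

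The shift of CBE_1 did not stop at the border of the window. In the 10 Mb on its centromeric side, CBE_1 was above WT in 261 of 444 shared regions (58.8%) and below in 17.1%. In the 10 Mb on the telomeric side it was above in 103 of 219 (47.0%). On the chromosome beyond both, it was above in 406 of 1313 (30.9%) and below in 38.8%. The window and the stretch centromeric of it were therefore alike in direction, and the shift is not particular to the MHC. In the nearest 750 kb, 7 of 10 shared regions on the centromeric side were above WT in CBE_1.

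The 750 kb on the telomeric side were open mostly in the mutated lines. They held 10 and 13 peaks in CBE_1, 22 and 20 in CBE_2, and 4 and 4 in WT. Of their 25 regions, 9 were CBE_2-only, 4 were present in all 4 mutated libraries and no WT library, and 0 were WT-only. On the rest of the chromosome, which includes this stretch, these shares were 3.68%, 1.59% and 6.71%. Just inside the border, bins 13 and 14 had 49 regions, of which 10 were WT-only, 3 CBE_2-only and 0 mutated-only. In WT-only and mutated-only regions the lines thus differed in opposite directions on the 2 sides of the border. This contrast was drawn after the values were seen.

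**Figure D4:**
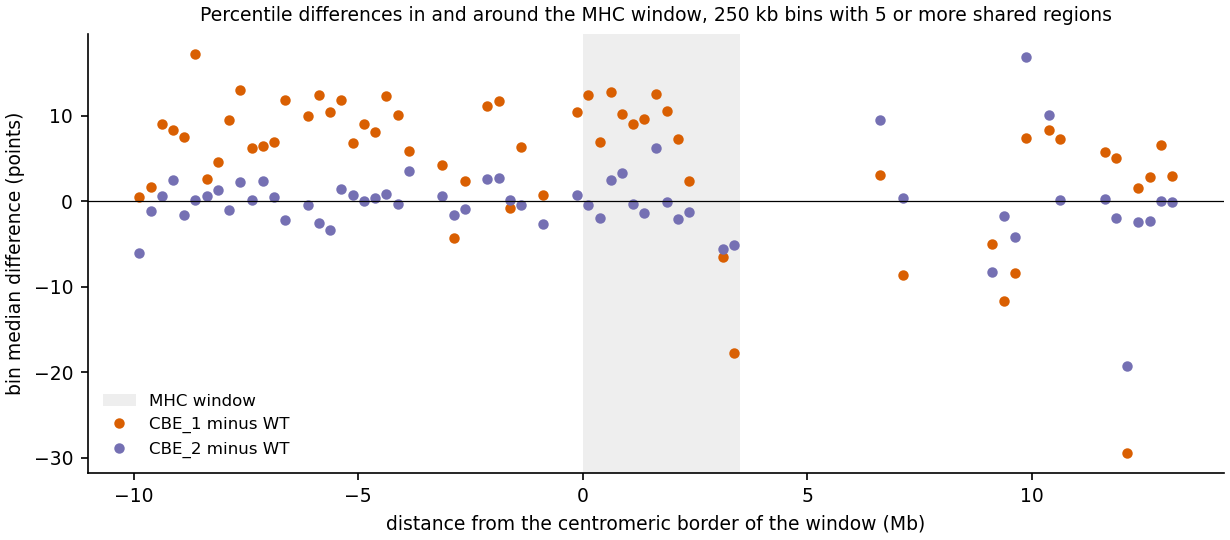
Median percentile difference (points) of CBE_1 minus WT and CBE_2 minus WT in 250 kb bins with at least 5 shared regions, by distance from the centromeric border of the MHC window in Mb, with the window shaded. CBE_1 medians are mostly above 0 on the centromeric side and in the window up to bin 10, and turn to −17.7 points at its telomeric end.

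The regions furthest above WT lay in class III and in K end and class II. The region chr17:35108923-35109846 in class III stood at percentiles of 64.6 and 60.4 in CBE_1, 46.3 and 42.1 in CBE_2, and 1.12 and 1.39 in WT, a difference of 52.1 points between the means of the mutated and the WT libraries. Its covered bases were 879 and 884 in CBE_1, 906 and 867 in CBE_2, and 337 and 249 in WT. It was thus among the weakest shared regions of the genome in WT and a mid-ranking one in both mutated lines. Its covered bases, which were not part of the choice, did not overlap between the groups either.

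The next 4 lay in K end and class II. The region chr17:34087178-34089047 stood at 73.5 and 68.7 in CBE_1, 60.7 and 58.0 in CBE_2, and 21.6 and 20.7 in WT, a difference of 44.1 points. The region chr17:34164079-34165662 stood at 77.6 and 74.5 in CBE_1, 69.1 and 70.8 in CBE_2, and 28.6 and 35.4 in WT, a difference of 41.0 points. In both, CBE_1 was the highest line and CBE_2 came between it and WT. The region chr17:34534823-34536215 stood at 54.3 and 49.3 in CBE_1, 67.9 and 67.3 in CBE_2, and 27.4 and 19.5 in WT, a difference of 36.3 points, and here CBE_2 was the highest line. It covered 1009 and 1160 bases in CBE_1, 1383 and 1251 in CBE_2, and 398 and 391 in WT. The region chr17:34399846-34400634 stood at 71.1 and 66.1 in CBE_1, 67.9 and 69.2 in CBE_2, and 35.9 and 37.2 in WT, a difference of 32.0 points with the mutated lines overlapping. The other 42 of the 47 regions above WT in all 4 mutated libraries differed by less, down to 2.93 points, and 9 of the 47 differed by 20 points or more.

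The region furthest below WT was chr17:34355233-34356341 in K end and class II, at 68.9 and 60.7 in CBE_1, 30.1 and 28.4 in CBE_2, and 85.1 and 86.1 in WT, a difference of −38.6 points. It covered 734 and 813 bases in CBE_1, 371 and 417 in CBE_2, and 1064 and 1081 in WT. Among the shared regions it ranked high in WT, lower in CBE_1 and lowest in CBE_2, and CBE_1 and CBE_2 did not overlap either. Among all peaks of the CBE_2 lists it still stood at percentiles of 60.2 and 60.0 by −log10 q-value. In class III, chr17:35169374-35169889 stood at 30.4 and 35.0 in CBE_1, 7.53 and 10.06 in CBE_2, and 56.3 and 53.3 in WT, a difference of −34.1 points. In D and Q, chr17:35847589-35848156 stood at 0.813 and 1.58 in CBE_1, 17.6 and 15.1 in CBE_2, and 41.2 and 44.5 in WT, also −34.1 points, with CBE_1 the lowest line in this case.

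A pair of neighbours in bin 10 of T and M also stood low in both mutated lines. The region chr17:36365592-36366539 had percentiles of 18.1 and 16.6 in CBE_1, 7.53 and 11.3 in CBE_2, and 45.8 and 49.9 in WT, a difference of −34.4 points. The region just centromeric of it, chr17:36364432-36365508, had 41.1 and 44.4 in CBE_1, 20.4 and 27.1 in CBE_2, and 62.0 and 62.3 in WT, a difference of −28.9 points. In both, CBE_2 was the lowest line and WT the highest. The other 18 of the 23 regions below WT in all 4 mutated libraries differed by as little as −5.01 points, and 6 of the 23 differed by 20 points or more.

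**Figure D5:**
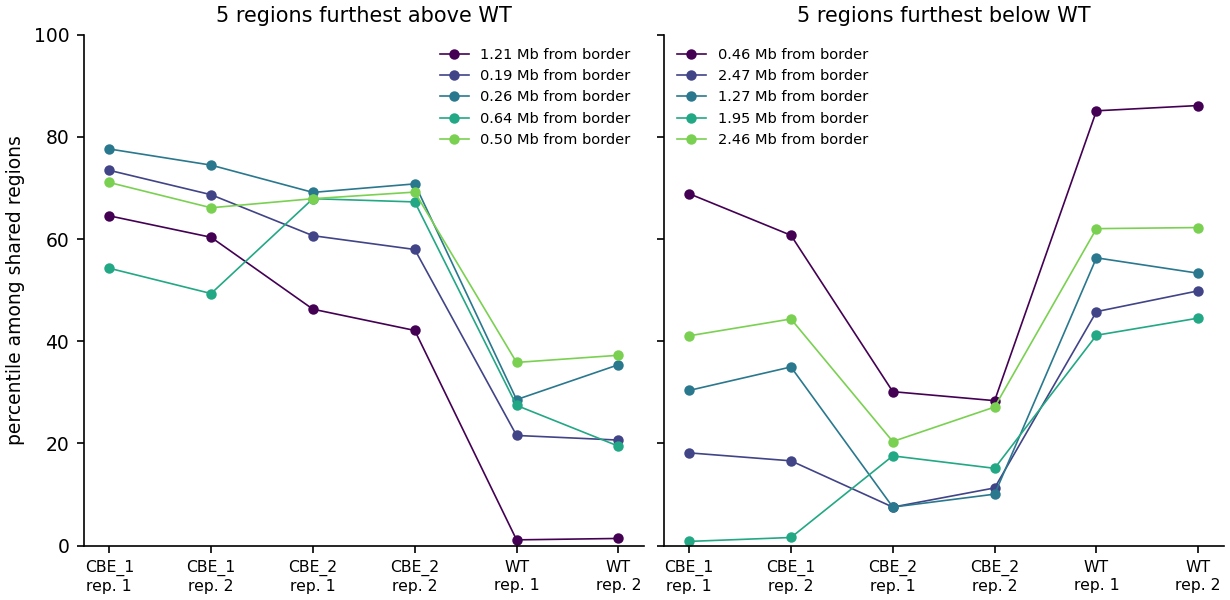
Percentile among the 47767 shared regions of the genome, in each of the 6 libraries, for the 5 window regions furthest above WT (left) and the 5 furthest below WT (right), each labelled by its distance from the centromeric border of the window. By the rule of choice, both WT points of every region are under all 4 mutated ones in the left panel, the lowest at 1.12. In the right panel they are over them, the highest at 86.1.

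The strongest regions named here were picked among the shared regions by their lowest percentile, so strength in every library was part of the rule. The 5 whose lowest percentile was highest were chr17:35977895-35979499 and chr17:36052439-36056682 in bin 9, chr17:35652544-35655188 in D and Q, chr17:36972842-36974776 in bin 13 and chr17:34026972-34028150 in bin 1. The first stood at 99.9 and 99.5 in CBE_1, 96.2 and 95.6 in CBE_2, and 96.4 and 95.3 in WT. The one in bin 13 stood at 94.0 and 94.9 in CBE_1, 92.1 and 93.3 in CBE_2, and 97.2 and 94.9 in WT, and thus kept a high rank in a bin where most other shared regions were lower in the mutated lines. Of the 229 shared regions, 8 (3.49%) were at the 90th percentile or above in all 6 libraries, against 4.81% elsewhere on the chromosome, and 108 (47.2%) at the 50th or above, against 38.6%. The share at the 90th percentile was thus near the background, and the share at the 50th was above it.

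The widest region, chr17:34253480-34261091 in bin 2, measured 7612 bp and was open over nearly its whole length in every library, with 7186 and 7361 covered bases in CBE_1, 7234 and 7185 in CBE_2, and 7384 and 7237 in WT. Its percentile was 98.2 and 98.5 in CBE_1, 86.0 and 86.4 in CBE_2, and 85.5 and 80.3 in WT, so CBE_1 ranked it higher without covering more bases. The second, chr17:35135067-35140752 in class III, measured 5686 bp. It covered 4150 and 4772 bases in CBE_1, 4005 and 4333 in CBE_2, and 5515 and 4909 in WT, narrower in all mutated libraries, and stood at percentiles of 85.2 and 80.5 in CBE_1, 66.2 and 66.0 in CBE_2, and 69.5 and 68.1 in WT. The third, chr17:34725808-34730386, measured 4579 bp and the fourth, the bin 9 region chr17:36052439-36056682, 4244 bp, and in neither did the mutated and WT libraries separate in covered bases.

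Width separated the groups in few shared regions. All 4 mutated libraries covered more bases than both WT libraries in 16 (6.99%), against 7.95% outside the window, and fewer in 46 (20.1%), against 25.8%. Wider regions numbered 25 without CBE_2 replicate 1 (10.8%, against 9.10%), 36 without WT replicate 1 (15.3%, against 14.7%) and 29 without WT replicate 2 (12.3%, against 12.6%). Narrower ones numbered 85 without WT replicate 2 (36.2%, against 39.4%), so these shares moved together with those of the rest. The median covered length of shared window regions was 858 bases in each CBE_1 library, 787 and 817 in CBE_2, and 907 and 885 in WT. The WT lists are the longest, and the part of list length in the widths was not tested. On the rest of the chromosome the CBE_1 libraries had 640 and 694 bases, CBE_2 797.5 and 819.5, and WT 829 and 795. CBE_1 thus had the narrowest shared regions on the rest of chromosome 17 and came between CBE_2 and WT in the window.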

How the data were processed

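ATAC-seq was done on 3 RAG2-deficient pro-B lines with 2 libraries each. Per the submitters' processing notes, which give no versions, the tools were Trimmomatic, Bowtie2, SAMtools and Picard and the build was mm9. Not given in the sources used here are the peak caller, its settings and any shift of reads for the transposase. The authors deposited 1 peak list per library, with a score, a fold over background (a ratio), −log10 p-value and −log10 q-value per peak. These are the authors' own values and served only to rank, filter or describe peaks within a list. The deposited score was not used.

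Peaks were merged at 1 bp of overlap, and a region belonged to the window chr17:33900000-37400000 by its midpoint. A library's value for a region was that of its strongest peak there, and covered bases were those of all its peaks in it. Percentiles were ranks among the 47767 regions present in all 6 libraries. Counts over regions have no test, since regions are not replicates. The window's share of a list was tested by an exact permutation test. Regions were named by rule: of each presence pattern the 4 of best lowest significance rank, the 5 shared regions furthest above and below WT, the 5 of highest lowest percentile, the 4 widest, those at the borders, the longest gaps, and the extreme bins. The members, lists and rules were chosen with earlier results of these data known. Replicates were numbered in accession order.

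Merging, patterns and ranks were tested on simulated data of 20000 regions, where all patterns and 99.6% of raised regions were recovered. The simulated rises were large and the noise small, and false calls were not counted. The simulation thus checks the code and not the reliability of small rank differences. Python 3.11.15, numpy 2.4.6, pandas 2.3.3, scipy 1.17.1 and matplotlib 3.10.9 were used. Alternatives were the better 50% of each list, equal list lengths, 100 bp of overlap, other window borders, another ranking and width, another reference, and leaving out each library.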

Additional observations from a re-analysis of the deposited data

Results flagged for a closer look

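Of 37 measures examined, none had a mutated library far from the other 3 by Dixon's criterion, and in 4 the CBE_1 libraries lay to one side of both WT libraries and the CBE_2 libraries to the other. These differences between the lines were not tested. The window's share of the peaks of chromosome 17 was 10.3% and 10.07% in CBE_1, 8.10% and 7.93% in CBE_2, and 8.50% and 8.34% in WT, and the CBE_1 mean was 2.18 percentage points over that of CBE_2. In bin 9, the first of T and M, the median percentile of the 23 shared regions was 7.27 points higher in CBE_1 than in CBE_2, with WT between them. The region chr17:35652544-35655188, among the strongest of the window, stood at 98.5 and 99.0 in CBE_1, 92.1 and 92.8 in CBE_2, and 93.8 and 96.3 in WT, with CBE_1 6.23 points over CBE_2. The second widest region, chr17:35135067-35140752, ranked 16.8 points higher in CBE_1 than in CBE_2, also with WT between.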

How the results depend on the processing

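No paired analysis was possible because the labels give no replicate numbers shared between lines and no result comes from a fitted model. Of 270 values recomputed under an alternative, 232 were labelled the same as the main value and 38 as moved. The difference in the window's share of a list was labelled by sign alone. Its fall to 0.0259 percentage points with lists of equal length thus counted as the same. Counts were allowed a fixed ratio, so CBE_2 above WT in 79 regions instead of 53 also counted as the same. Median differences had to stay within 1.42 points. Most of the 270 values were counts or shares, which cannot change sign. Of the differences from WT, which can, 0 changed sign. CBE_1 above WT stayed at 64.7% to 75.7% of shared window regions under all alternatives. Ranking by −log10 q-value gave exactly the same counts and median differences as ranking by fold, so it was not an independent check. The counts that follow are given with their share and the same share on the rest of the chromosome. With the better 50% of each list there were 263 window regions. Of these, 6 were CBE_1-absent (2.28%, against 7.44%) and 2 CBE_2-absent (0.760%, against 0.392%). Of the 163 shared ones, 14 were below WT (8.59%, against 17.3%) and 17 below WT in CBE_1 (10.4%, against 34.0%). Narrower ones numbered 28 (17.2%, against 24.2%). With lists of equal length WT-only regions numbered 12 (3.02%, against 4.94%), CBE_1-only 6 (1.51%, against 1.41%) and CBE_1-absent 7 (1.76%, against 3.51%). A window shorter by 1 bin at each end held 7 CBE_1-absent regions (1.72%, against 4.95%). The percentile of width gave 10 wider regions (4.37%, against 6.68%). Leaving out bins 13 and 14 was an alternative chosen after seeing the data. There were then 19 WT-only (4.52%, against 6.71%), 4 CBE_2-only (0.952%, against 3.68%) and 6 CBE_1-absent regions (1.43%, against 4.95%). Of the shared regions, 15 were then below WT (6.98%, against 17.4%) and 17 below WT in CBE_1 (7.91%, against 32.9%).

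Leaving out 1 library at a time gave these lowest and highest values. The mean difference in the window's share of a list lay between 0.0336 and 0.0664 percentage points, window regions between 451 and 465, and regions present in all remaining libraries between 232 and 246. WT-only regions ranged from 29 to 56, mutated-only from 4 to 10, CBE_1-only from 3 to 21, CBE_2-only from 7 to 15, CBE_1-absent from 13 to 30 and CBE_2-absent from 6 to 11. Regions above WT ranged from 53 to 70 and below WT from 25 to 37. CBE_1 was above WT in 150 to 178 and below in 27 to 49, and CBE_2 above in 55 to 79 and below in 82 to 108. Wider regions ranged from 20 to 36 and narrower from 54 to 85. The median difference from WT ranged from 1.83 to 4.79 points, for CBE_1 from 6.65 to 9.69 and for CBE_2 from −1.21 to −0.738. A pattern that must hold in fewer libraries is met more often by construction, on the rest of the chromosome as well, so these ranges of counts alone show no change particular to the window. Read depth is unknown, so a missing peak may be a peak that a list was too short to hold.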
